A study of Mus musculus with 34 samples.

Results

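The soleus of 6-month-old female mice that had run on weighted wheels was compared with the soleus of age-matched sedentary mice by RNA sequencing. The comparison rests on 8 of the 34 libraries of the study, chosen by their labelled muscle, age and training: 4 libraries of PoWeR soleus against 4 of sedentary soleus. PoWeR, progressive weighted wheel running, is a voluntary regimen in which mice run on a wheel whose load is raised step by step, and it lasted 8 weeks here. PoWeR mice had their wheel locked for 24 h before they were killed, so the samples describe rested trained muscle, and the animals had been fasted overnight. The sedentary mice had the same age of 6 months. No genetic modification, drug or strain is named for either group in the sources used here. The study also holds 24-month mice and libraries labelled plantaris, which are used below only to place these results. The labels do not say whether libraries came from separate animals or from pools, so p-values measure the spread between libraries. Unless stated otherwise, that spread was estimated over all 17 soleus libraries, 24-month ones included, and not from the 8 libraries alone. The extract protocol attached to the soleus samples speaks of plantaris RNA. In whole muscle, fewer cells of a type and less RNA per cell cannot be told apart.

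The soleus is a postural calf muscle built mostly of slow, oxidative fibres. Slow fibres hold the slow myosin heavy chain, the slow calcium pump and dense mitochondria, and endurance training is known to raise mitochondrial protein, capillaries and fatigue resistance. Messenger RNA of training-responsive genes moves on several time scales, from bursts of immediate early genes within hours of a bout to slow shifts in the resting state between bouts.

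The libraries held 16840043 to 22072256 counts each. Of the 4 adult myosin heavy chains, the slow Myh7 made up 62.2% to 75.2% of the counts in the 8 libraries, the 2A form Myh2 22.6% to 30.1%, the 2X form Myh1 1.55% to 8.77% and the 2B form Myh4 0.0456% to 0.0882%, the makeup of a slow muscle. On the first principal component, which carried 40.6% of the variance, PoWeR replicate 3 lay at 53.8 and sedentary replicate 2 at -38.5, each at the end of its own group. These 2 libraries also stood at opposite ends of a difference by transcript length, described with the mitochondrial genes below, and counts are therefore given with and without them. The biological coefficient of variation was 24.3% among PoWeR libraries and 16.5% among sedentary libraries. No 2 replicates agreed within sampling noise (lowest chi-square per degree of freedom 13.4). Values per library are TMM-scaled CPM, counts relative to the library total.

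In the fit of all 17 soleus libraries, 891 of 14934 genes were higher with PoWeR (5.97%) and 1029 were lower (6.89%) at an adjusted p under 0.05 by edgeR's quasi-likelihood test with Benjamini-Hochberg adjustment. A gene past this threshold is described below as called. The median log2 difference of all genes was 0.04. Fitting only the 8 libraries gave 190 higher (1.36%) and 168 lower (1.2%) genes. Without PoWeR replicate 3, 264 were higher (1.75%) and 359 lower (2.38%). With offsets for transcript length and GC content, 356 were higher (2.43%) and 557 lower (3.8%). Without both PoWeR replicate 3 and sedentary replicate 2, 49 were higher (0.325%) and 75 lower (0.498%). In all, 2219 genes (14.9%) had no overlap between the 4 PoWeR and the 4 sedentary libraries, and 1391 of these were called. The smallest group of calls, those made in the 17-library fit and in all 18 alternatives to it, held 35 higher genes (0.234%) and 41 lower genes (0.275%).

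Nrcam, a cell adhesion molecule best known from neurons (chromosome 12, 44328885 to 44601964, mm10), rose with training. Nrcam stood at 0.811, 0.662, 1.08 and 0.752 CPM in the 4 sedentary libraries and at 4.74, 8.79, 11.8 and 4.65 CPM in the PoWeR libraries. Every PoWeR library was above every sedentary library. Lack of overlap was a condition for listing a gene among the largest rises and falls, so for those genes it is not separate support. The log2 fold change was 3.16 ± 0.44 (SE, n = 4 per group; adjusted p = 0.00149), and it was called in every alternative. Sh2d4a, an SH2-domain adaptor protein (chromosome 8, 68276567 to 68347699), rose from 4.74, 4.70, 5.33 and 7.52 CPM to 19.2, 31.4, 27.0 and 14.98 CPM. Its groups did not overlap either, with a log2 fold change of 2.05 ± 0.26 (adjusted p = 0.00149). Mettl21e, a lysine methyltransferase of muscle (chromosome 1, 44204070 to 44218961), went from 0.499, 1.06, 1.17 and 1.504 CPM to 5.69, 11.8, 10.7 and 6.17 CPM. All 4 PoWeR libraries were well above the sedentary range (log2 fold change 3.002 ± 0.55, adjusted p = 0.00591).

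**Figure D1:**
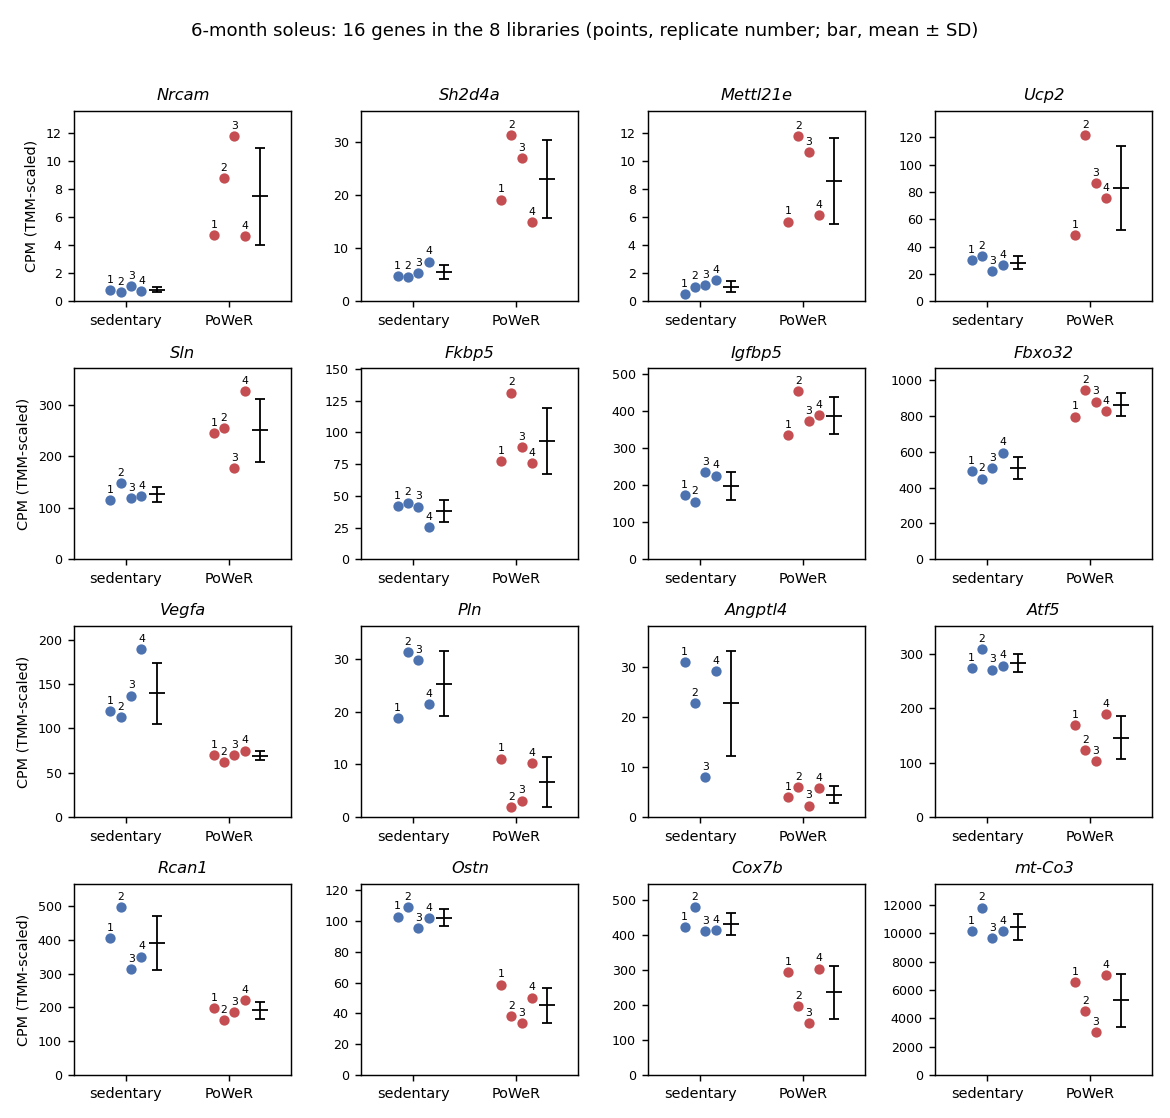
TMM-scaled CPM of 16 genes in the 4 sedentary (blue) and 4 PoWeR (red) libraries of 6-month soleus; numbers are replicates and the bars beside the points are mean ± SD. Groups do not overlap in any panel, which was a condition for listing Nrcam, Sh2d4a, Mettl21e, Ucp2, Angptl4 and Ostn among the largest changes. PoWeR replicates 2 and 3 are the lowest PoWeR libraries for Cox7b, mt-Co3, Atf5, Pln and Ostn.

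Other large rises followed. Ano3, a member of the anoctamin family of membrane proteins, rose from 2.01 to 2.95 CPM to 5.19 to 15.4 CPM (2.16 ± 0.40, adjusted p = 0.00558). Sv2b, a synaptic vesicle glycoprotein, had a log2 fold change of 2.08 ± 0.50 (adjusted p = 0.0164), and it was not called without PoWeR replicate 3 (adjusted p = 0.0664). Gnal, a stimulatory G protein subunit, rose by 1.56 ± 0.31 (adjusted p = 0.00878), and Ucp2, an uncoupling-family carrier of the inner mitochondrial membrane, by 1.56 ± 0.28 (adjusted p = 0.00611). Inmt, a methyltransferase of small amines, rose from 9.04 to 11.3 CPM to 21.1 to 42.4 CPM (1.62 ± 0.27, adjusted p = 0.00465). Fam171b (2.49), Galnt5 (1.81), Ndrg4 (1.72), Sbk3 (1.59) and Dsp (1.56, the desmosomal protein desmoplakin) were also among the 15 largest qualifying rises on the log2 scale, with Mybph below. Of these, Ndrg4, Sbk3 and Dsp were not called without PoWeR replicate 3.

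Among the genes that fell was Vegfa, the main growth factor for capillaries (chromosome 17, 46016993 to 46032369). It stood at 120, 113, 137 and 190 CPM in sedentary libraries and at 70.1, 62.0, 70.3 and 75.03 CPM in PoWeR libraries. The PoWeR libraries lay close together and all below the sedentary ones, with a log2 fold change of -1.01 ± 0.17 (adjusted p = 0.00445). Ostn, the gene of the secreted peptide musclin, also called osteocrin (chromosome 16, 27307489 to 27351212), went from 103, 109, 95.3 and 102 CPM to 58.7, 37.95, 33.8 and 50.3 CPM. Its sedentary libraries lay close together, above all PoWeR libraries (-1.18 ± 0.19, adjusted p = 0.00372). Lrrc52, an auxiliary subunit of potassium channels, went from 22.3 to 29.6 CPM to 3.88 to 12.9 CPM (-1.67 ± 0.30, adjusted p = 0.00558). Padi2, a peptidylarginine deiminase that turns arginine into citrulline in proteins, fell from 94.7 to 120 CPM to 32.5 to 70.8 CPM (-1.09 ± 0.17, adjusted p = 0.0032). Vegfa, Ostn, Lrrc52 and Padi2 were called in every alternative.

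Angptl4, an inhibitor of lipoprotein lipase, had the largest fall among genes that met the rule for named genes. It stood at 31.0, 22.9, 7.98 and 29.2 CPM in sedentary libraries and at 3.92, 6.03, 2.27 and 5.73 CPM in PoWeR libraries. The groups did not overlap, although sedentary replicate 3 lay nearer to the PoWeR libraries than to its own group. The log2 fold change was -2.33 ± 0.51 (adjusted p = 0.0126; 0.052 without PoWeR replicate 3). Tnfrsf12a, the receptor of the cytokine TWEAK, fell from 27.1 to 78.7 CPM to 8.36 to 18.0 CPM (-1.80 ± 0.32, adjusted p = 0.00558). Slc22a2, an organic cation transporter (-2.09), and Rrad, a small GTPase that restrains calcium channels (-1.73), lost their calls without PoWeR replicate 3. Smyd2, a lysine methyltransferase, fell by 1.35 on the log2 scale and the histone gene H4c8 by 1.14, and both calls held in each of the 8 fits that left out a single library. Histone genes have nearly identical copies, so the counts of H4c8 are uncertain. Gm13889 (-1.91), Bend5 (-1.32), Smim4 (-1.34), Rpl17 (-1.27), 2310009B15Rik (-1.15) and Myl10 (-1.14) were the rest of the 15 largest qualifying falls with Egr1, given below. Of these, Myl10 was not called without PoWeR replicate 3.

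Genes of oxidative phosphorylation were lower in PoWeR soleus. Nuclear subunits of complex I, which takes electrons from NADH, were called lower in 34 of 37 cases with a median log2 fold change of -0.64. Of complex II (succinate dehydrogenase) 3 of 4 were lower (median -0.59), of complex III and cytochrome c 10 of 10 (-0.61), of complex IV (cytochrome c oxidase) 12 of 14 (-0.72) and of complex V (ATP synthase) 11 of 16 (-0.65). Of the 13 protein genes of the mitochondrial genome, 11 were called lower (median -0.79). No subunit on these lists was called higher, against 6.89% of all genes called lower and 5.97% called higher.

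Cox7b, a small subunit of cytochrome c oxidase, shows the pattern in single libraries: 423, 481, 413 and 414 CPM in the sedentary libraries and 295, 198, 148 and 305 CPM in the PoWeR libraries. PoWeR and sedentary libraries did not overlap, PoWeR replicates 2 and 3 were lowest, and the log2 fold change was -0.87 ± 0.16 (adjusted p = 0.00504). The mitochondrially encoded mt-Co3, a catalytic-core subunit of the same complex, stood at 10190, 11830, 9660 and 10140 CPM and at 6575, 4516, 3017 and 7051 CPM. It differed by -0.98 ± 0.18 (adjusted p = 0.00504), again without overlap. Its reads are uncertain between it and a nearly identical nuclear copy, Gm28437 (log2 fold change -0.99). Among other named subunits, Ndufv3 of complex I had a log2 fold change of -0.76, Sdhd of complex II -0.74, Uqcr10 of complex III -0.84, Cox4i1 -0.85 and Atp5j2 of ATP synthase -0.83. Mitochondrially encoded genes took 23.1%, 22.7%, 21.3% and 22.1% of the counts of the sedentary libraries and 17.2%, 13.5%, 10.7% and 18.5% of those of the PoWeR libraries. The shares did not overlap (22.3% ± 0.775 against 14.97% ± 3.54, SD, n = 4 each; exact two-sided permutation p = 0.0286, the smallest these groups allow, and 0.0857 adjusted over 9 shares).

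**Figure D2:**
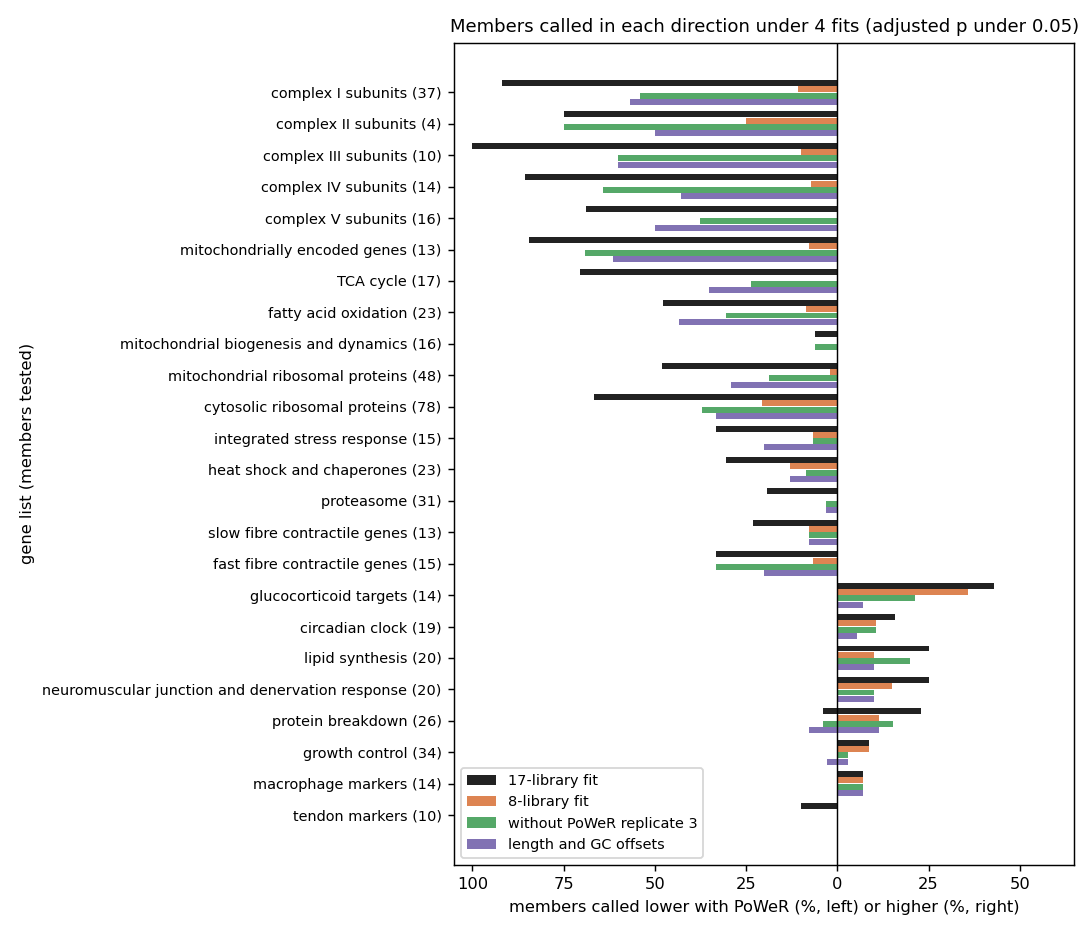
Percent of the tested members of each gene list that were called lower (left) or higher (right) with PoWeR in the 17-library fit, in the fit of the 8 libraries, without PoWeR replicate 3 and with length and GC offsets. Every called member of the respiratory chain and ribosomal lists is lower in each of these fits, and far fewer members are called with 8 libraries.

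How many of these genes were called depended on the libraries and on transcript length. In the fit of the 8 libraries alone, 4 complex I, 1 complex IV, 1 mitochondrially encoded and no complex V genes were called lower. Of complex I, 16 were lower without PoWeR replicate 2 and 17 without sedentary replicate 2. The numbers were 20, 9, 9 and 6 without PoWeR replicate 3, and the medians -0.49, -0.54, -0.62 and -0.52. Without PoWeR replicate 3 and sedentary replicate 2 the medians were -0.41, -0.48, -0.60 and -0.45, with 3, 3, 6 and 2 genes called. The complex I median in single libraries, relative to the sedentary mean, was -0.14, 0.21, -0.02 and -0.02 in sedentary libraries and -0.22, -0.80, -1.17 and -0.43 in PoWeR libraries, so that all 4 PoWeR libraries lay below all sedentary ones.

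**Figure D3:**
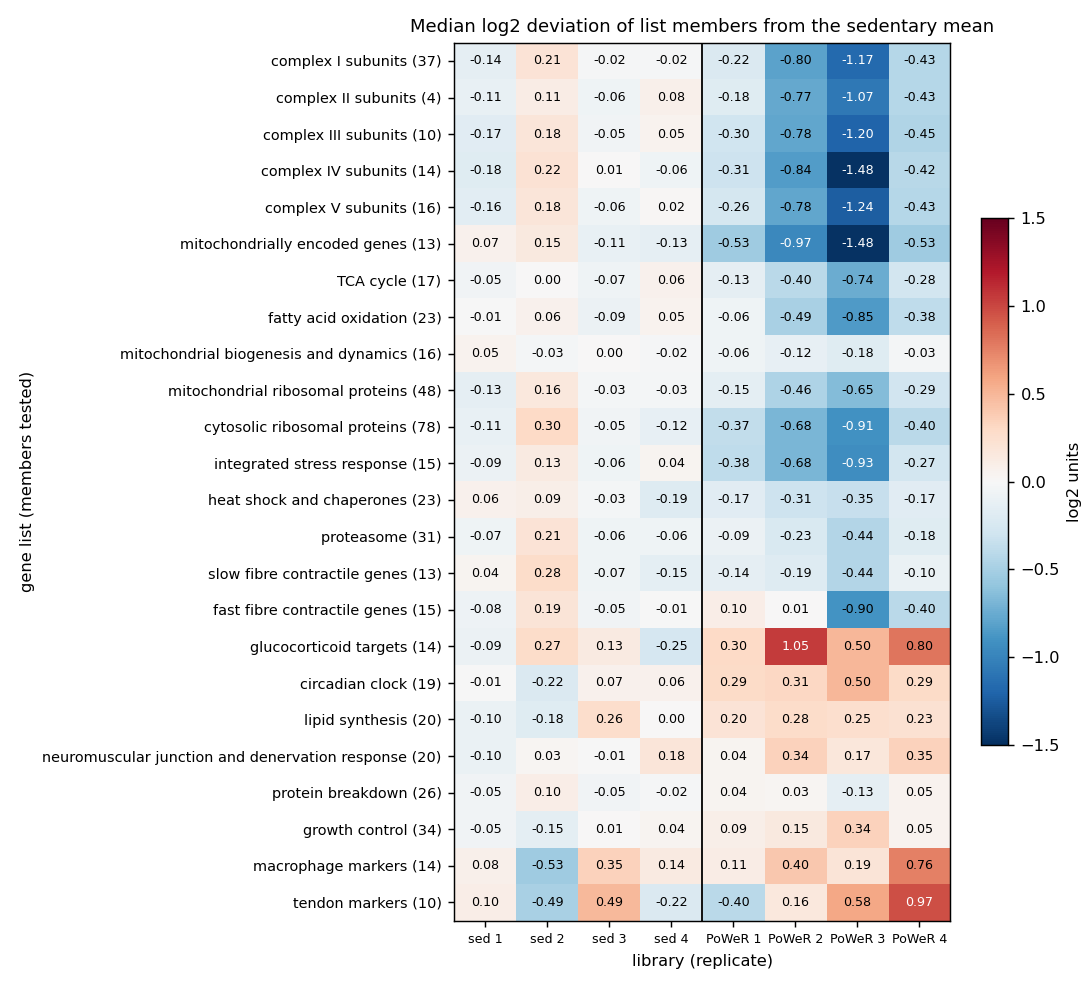
Median log2 deviation of the tested members of 24 gene lists (list rows, with the number of members) from the sedentary mean in each of the 8 libraries (columns); blue is lower and red higher. The respiratory chain lists are below 0 in all 4 PoWeR libraries, deepest in PoWeR replicates 2 and 3.

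Short transcripts as a class were lower in PoWeR libraries. In the quartile of tested genes with the shortest transcripts (66 to 1962 bases), 586 were called lower and 48 higher, with a median log2 fold change of -0.21. In the quartile with the longest (4697 to 123179 bases), 39 were lower and 548 higher, with a median of 0.24. The median deviation of the shortest quartile was -0.07, 0.15, 0.00 and -0.05 in the sedentary libraries and -0.09, -0.21, -0.38 and -0.14 in the PoWeR libraries. Respiratory chain transcripts are short: the median length was 1005 bases for complex I, 694 for complex IV and 784 for the mitochondrially encoded genes. With length and GC offsets, 21 of 37 complex I genes were still called lower (median -0.36), 6 of 14 of complex IV (-0.49) and 8 of 13 mitochondrially encoded genes (-0.59). The part of transcript length in the remaining differences was not tested.

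**Figure D4:**
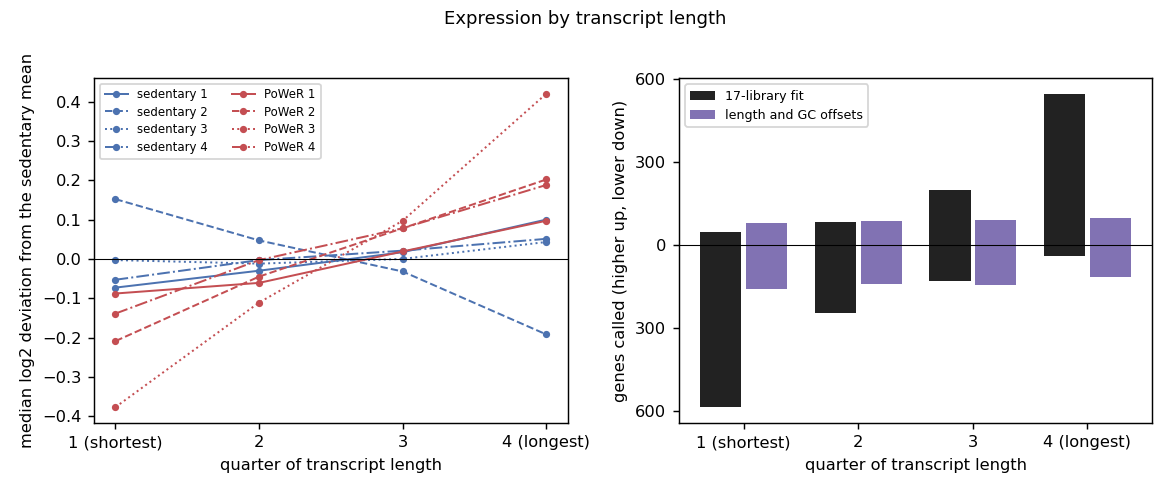
Left, median log2 deviation from the sedentary mean in each library by quartile of transcript length; right, genes called higher (up) or lower (down) by quartile, with and without offsets for length and GC content. Without offsets 586 genes of the shortest quartile were called lower and 548 of the longest quartile higher; with offsets these counts were 158 and 98.

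Of 17 genes of the citric acid cycle, 12 were called lower (median -0.37), against 6.89% of all genes. They were led by Idh2, the NADP-dependent mitochondrial isocitrate dehydrogenase (-0.64 ± 0.16, adjusted p = 0.0178). Of 23 genes of fatty acid oxidation, 11 were lower (median -0.46). They included Acaa2, the thiolase that closes each round of beta-oxidation (-0.76), Hadh, the dehydrogenase before it (-0.64), Etfb, which passes electrons to the chain (-0.64), and Decr1, needed for unsaturated fatty acids (-0.59). The counts differed in other fits: 4 citric acid cycle and 7 fatty acid oxidation genes without PoWeR replicate 3, 0 and 7 without PoWeR replicate 2, 2 and 7 without sedentary replicate 2, 0 and 2 with 8 libraries, and none without PoWeR replicate 3 and sedentary replicate 2. Glycolysis had 6 of 16 genes lower (median -0.35), among them the lactate dehydrogenase genes Ldha (-0.67) and Ldhb (-0.61), and without PoWeR replicate 3 a single gene of that list was called. Of 16 regulators of mitochondrial number and shape, 1 was called, the fission factor Fis1 (-0.47), and the median of the list was -0.10. For a list of this size 1 call is near the 6.89% of all genes called lower. With the offsets Fis1 was at -0.18 (adjusted p = 0.169). There, 6 citric acid cycle, 10 fatty acid oxidation and 2 glycolysis genes were called lower, against 3.8% of all genes.

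Of 20 genes of lipid synthesis, 5 were called higher and none lower (median 0.28), against 5.97% of all genes called higher. The 8-library fit and the offsets called 2 each, fits without a single library 1 (PoWeR replicate 2 out) to 5, and the fit without PoWeR replicate 3 and sedentary replicate 2 none. Elovl6, which lengthens palmitate, stood at 1.43, 2.38, 5.09 and 3.93 CPM in sedentary and 9.80, 8.26, 6.82 and 8.22 CPM in PoWeR libraries. The groups did not overlap (log2 fold change 1.35 ± 0.36, adjusted p = 0.0202). Fasn, fatty acid synthase, rose by 1.01 ± 0.27 (adjusted p = 0.0241; 0.0854 without PoWeR replicate 3 and 0.143 with the offsets) and Acly, ATP citrate lyase, by 0.59 ± 0.17 (adjusted p = 0.0263). Sedentary replicate 3 was the highest sedentary library for Fasn at 75.9 CPM and for Acly at 30.5 CPM. In Acly it lay inside the PoWeR range of 27.2 to 43.6 CPM. Of 15 tested genes raised by fasting and fatty acids, Ucp2 and the nuclear receptor gene Ppard (0.40) were higher, and Angptl4 and the acyl-CoA thioesterase gene Acot2 (-0.77) were lower.

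The ribosome showed the same direction as the respiratory chain. Of 78 genes of cytosolic ribosomal proteins, 52 were called lower and none higher (median -0.59), against 6.89% of all genes called lower. Rps6, a phosphorylated protein of the small subunit, stood at 28.2, 40.0, 38.7 and 38.8 CPM in sedentary and 23.95, 13.01, 12.2 and 24.4 CPM in PoWeR libraries. There was no overlap between the groups (log2 fold change -0.99 ± 0.20, adjusted p = 0.00829). Without PoWeR replicate 3, 29 genes were called lower (median -0.48), without sedentary replicate 2 as well 4 (median -0.40), with the offsets 26 (median -0.36) and in the 8-library fit 16. The median transcript of these genes was 1076 bases, and many ribosomal protein genes have processed pseudogenes, so single genes such as Rpl31, Rps13 and Rpl17 are uncertain. Their summed share of counts was 0.790% ± 0.092 in sedentary and 0.610% ± 0.0728 in PoWeR libraries without overlap (exact permutation p = 0.0286, adjusted 0.0857). Of 48 genes of the mitochondrial ribosome, 23 were lower (median -0.35), for example Mrpl28 (-0.81) and Mrpl14 (-0.74), and 9 without PoWeR replicate 3.

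Each of the 15 tested genes of the integrated stress response, which centres on the transcription factor ATF4, had negative log2 fold changes (median -0.57). Of these, 5 were called lower, against 6.89% of all genes, and 3 with the offsets (median -0.43). The ATF4-related factor Atf5, known for the mitochondrial stress response, stood at 275, 309, 272 and 279 CPM in sedentary libraries and at 169, 123, 103 and 189 CPM in PoWeR libraries. The groups did not overlap (-0.96 ± 0.15, adjusted p = 0.00196), and Atf5 was called in every alternative. Trib3, a pseudokinase that restrains Akt, had a log2 fold change of -1.12 ± 0.34 (adjusted p = 0.036), Mthfd2, a mitochondrial folate enzyme, -1.0 ± 0.32 (adjusted p = 0.0424) and the stress cytokine gene Gdf15 -2.33 ± 0.63 (adjusted p = 0.022). All 3 were under 11 CPM, and none was called without PoWeR replicate 3, where Atf5 alone kept its call on this list. Of 23 chaperone genes, 7 were lower, with Cryab (alphaB-crystallin, -0.80), Hspa5 (the chaperone BiP of the endoplasmic reticulum, -0.73), Hspb2 (-0.64) and Hspb3 (-0.63) in front. Of 31 proteasome genes, 6 were lower (median -0.22). Of 25 antioxidant and metallothionein genes, 8 were lower, among them the quinone reductase gene Nqo1 (-0.99), Txnip (-0.84), Gpx4 (-0.71) and Prdx5 (-0.64). The calls without PoWeR replicate 3 were 2 chaperone, 1 proteasome and 2 antioxidant genes, all lower. Without sedentary replicate 2 as well there were none on these 3 lists. With the offsets, 3 chaperone, 1 proteasome and 5 antioxidant genes were called lower, with medians of -0.22, -0.04 and -0.19. Of all genes, 3.8% were called lower with the offsets and 6.89% without them.

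Trib3 is shown here because its start region holds the element that ATF4 binds with a C/EBP partner. The 30 bases below lie just after its transcription start on the minus strand (RefSeq, GRCm38.p6, chr2:152344028-152344057), and the capitals mark the reverse complement of TGATGNAA, whose first printed base is base 15 of the transcript.
Trib3: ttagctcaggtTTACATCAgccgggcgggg
TGATGNAA, searched on both strands from 250 bases before to 50 bases after each start, was present in 4 of the 14 list members with a promoter in the RefSeq table (28.6%), namely Trib3, Asns, Chac1 and Nupr1. It was present in 1219 of 27025 genes (4.51%). Of the 5 called members, Trib3 was the 1 that held it.

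Of 14 genes raised by the glucocorticoid receptor, 13 had positive log2 fold changes (median 0.74). On this list 6 were called higher, against 5.97% of all genes, and none lower. With the offsets 1 was called, in the 8-library fit 5, and leaving out PoWeR replicate 2 or sedentary replicate 2 left 1 each. Fkbp5, a chaperone partner of that receptor and among its best known targets, stood at 41.7, 44.6, 41.5 and 25.3 CPM in sedentary and 77.1, 131, 88.2 and 75.7 CPM in PoWeR libraries. No library crossed into the other group (1.28 ± 0.36, adjusted p = 0.0307; 0.083 without PoWeR replicate 3). Foxo3, a forkhead factor of protein breakdown, rose by 0.70 ± 0.15 (adjusted p = 0.00811; 0.0651 with the offsets), and Klf15, a metabolic zinc finger factor, by 0.67 ± 0.21 (adjusted p = 0.0456; 0.0842 without PoWeR replicate 3). The median deviation of the list was highest in PoWeR replicate 2 (1.05) and lowest in PoWeR replicate 1 (0.30), and sedentary replicates 1 to 4 lay at -0.09, 0.27, 0.13 and -0.25. Unlike the mitochondrial lists, its median was not smaller without PoWeR replicate 3 (0.78) or without sedentary replicate 2 as well (0.82), where 3 and no genes were called. Corticosterone was not measured, and the time of day of killing is not given in the sources used here.

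The clock list overlaps this one through Per1. Of 19 clock and clock output genes, 3 were called higher and none lower (median 0.31), against 5.97% of all genes called higher. Tef, an output factor of the PAR bZIP family, stood at 182, 184, 184 and 183 CPM in sedentary libraries and at 237, 255, 286 and 249 CPM in PoWeR libraries. The sedentary values were nearly equal and all PoWeR values lay above them (log2 fold change 0.48 ± 0.10, adjusted p = 0.00838). Per1, a repressor of the core loop that glucocorticoids also raise, went from 34.9, 39.1, 44.8 and 37.4 CPM to 58.9, 81.4, 54.6 and 61.0 CPM. This is a log2 fold change of 0.71 ± 0.22 without overlap (adjusted p = 0.0421; 0.083 without PoWeR replicate 3). Rora, a nuclear receptor that activates Bmal1, rose by 0.72 ± 0.16 (adjusted p = 0.0108); with the offsets its log2 fold change was 0.32 (adjusted p = 0.0934; transcript of 10878 bases). Of the clock list, Tef alone was called with the offsets, and no gene without PoWeR replicate 3 and sedentary replicate 2.

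The E-box CACGTG is the element through which CLOCK and BMAL1 act. The 250 bases before the RefSeq start are given for both called genes that hold it, on the plus strand of GRCm38.p6, with the element in capitals: chr15:81802423-81802672 for Tef, where it begins 127 bases before the start, and chr11:69098699-69098948 for Per1, where it begins 166 bases before.
Tef: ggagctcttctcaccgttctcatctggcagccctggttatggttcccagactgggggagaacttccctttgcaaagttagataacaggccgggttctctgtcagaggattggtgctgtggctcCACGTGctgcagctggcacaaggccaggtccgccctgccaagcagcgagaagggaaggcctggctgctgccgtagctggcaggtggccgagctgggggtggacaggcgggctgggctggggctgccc
Per1: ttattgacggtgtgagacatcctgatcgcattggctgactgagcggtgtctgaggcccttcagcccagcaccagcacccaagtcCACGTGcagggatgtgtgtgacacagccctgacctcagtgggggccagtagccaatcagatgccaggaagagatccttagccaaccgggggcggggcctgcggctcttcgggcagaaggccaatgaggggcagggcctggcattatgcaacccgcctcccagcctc
CACGTG was found in 5 of the 16 clock members with a promoter in the table (31.2%) and in 2187 of 27025 genes (8.09%) over the same 300 bases. Both genes have 2 starts in the table.

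In calcium handling, genes of 2 pump regulators were called and the pump genes were not. The slow pump gene Atp2a2 (0.12 ± 0.11) and the fast pump gene Atp2a1 (-0.09 ± 0.15) were not called (adjusted p = 0.521 and 0.719). Sln, the gene of sarcolipin, a small peptide that uncouples the pump, stood at 115, 148, 119 and 123 CPM in sedentary and 245, 255, 177 and 327 CPM in PoWeR libraries. The groups did not overlap (0.99 ± 0.27, adjusted p = 0.027), and the call was kept in 2 of the 8 fits that left out a single library. Pln, the gene of phospholamban, which restrains the slow pump, went from 18.8, 31.3, 29.8 and 21.5 CPM to 11.1, 1.90, 3.10 and 10.3 CPM. PoWeR replicates 2 and 3 were far below replicates 1 and 4, and the log2 fold change was -1.96 ± 0.56 (adjusted p = 0.0337; 0.119 without PoWeR replicate 3). The pump regulators Mrln (-0.33) and Strit1 (0.21) were not called. Of 29 genes of calcium handling, 5 were higher, against 5.97% of all genes, and Pln was lower. The 5 included the release channel gene Ryr1 (0.60) and the voltage sensor gene Cacna1s (0.49). PoWeR replicate 4 lay inside the sedentary range for Ryr1. With length and GC offsets Ryr1, whose transcript has 15358 bases, was at 0.06 (adjusted p = 0.842) and Cacna1s at 0.27 (adjusted p = 0.285). No gene of the list was called higher without sedentary replicate 2, 3 or 4 or without PoWeR replicate 2, and 1, Sln, without PoWeR replicate 3.

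Calcineurin, a calcium-activated phosphatase, drives the slow fibre programme through NFAT factors. Its inhibitor gene Rcan1, itself an NFAT target, stood at 406, 498, 313 and 351 CPM in sedentary and 198, 161, 185 and 222 CPM in PoWeR libraries. No PoWeR library reached the lowest sedentary one (-1.03 ± 0.19, adjusted p = 0.00543). Nfatc3 rose by 0.67 ± 0.12 (adjusted p = 0.00504) and Camk2d, a calcium/calmodulin kinase, by 0.59 ± 0.15 (adjusted p = 0.0183; 0.0803 without PoWeR replicate 3). Atp1b1, the beta subunit gene of the sodium and potassium pump, had a log2 fold change of -0.73 ± 0.13 (adjusted p = 0.00501) and was called in every alternative. Ion channel genes Ano5 (0.51) and Abcc9 (0.45) were higher in the 17-library fit but not without PoWeR replicate 3.

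Myosin heavy chain genes were not called. Myh7 had a log2 fold change of 0.38 ± 0.15 (adjusted p = 0.115), Myh2 0.16 ± 0.21 (0.662), Myh1 0.24 ± 0.52 (0.805) and Myh4 -0.02 ± 1.33 (0.996). The SE of Myh4 uses a spread shared with the 24-month soleus, where Myh4 took 0.0328% to 3.16% of the myosin counts. In the 6-month soleus Myh4 stood at 21.3 ± 4.9 CPM in sedentary and 21.1 ± 5.9 CPM in PoWeR libraries (SD). As a share of the 4 chains, Myh7 was 66.5% ± 3.04 in sedentary and 69.8% ± 4.84 in PoWeR libraries (exact permutation p = 0.257) and Myh2 29.0% ± 0.895 and 25.8% ± 3.39 (exact permutation p = 0.143; n = 4 each). Of other contractile genes, 3 of 13 slow genes were called lower, including Myl3 (-0.82) and Tnnc1 (-0.54), against 6.89% of all genes. Of 15 fast genes 5 were called lower, including Tnnc2 (-0.82), Tnni2 (-0.80), Tnnt3 (-0.69) and Mylpf (-0.68). With length and GC offsets, 1 slow and 3 fast genes were called lower. Tnnc1, Tnnt3 and Mylpf, with transcripts of 721, 1079 and 766 bases, were then not called (adjusted p = 0.313, 0.0552 and 0.0634). Leaving out PoWeR replicate 3, 1 slow and 5 fast genes were called lower, in the 8-library fit 1 and 1, and with sedentary replicate 2 left out as well 0 and 0. The fast list had a median deviation of 0.10 and 0.01 in PoWeR replicates 1 and 2, and -0.90 and -0.40 in replicates 3 and 4.

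Load-sensing genes of the sarcomere were mixed. Mybph, myosin binding protein H, stood at 2.31, 1.92, 1.52 and 1.97 CPM in sedentary and 6.45, 16.2, 41.7 and 7.14 CPM in PoWeR libraries. All PoWeR libraries were higher, PoWeR replicate 3 by far the most (3.22 ± 0.85, adjusted p = 0.0262, and 0.103 without it). Xirp2, an actin-binding protein that marks remodelling of the sarcomere, rose by 0.96 ± 0.24 (adjusted p = 0.0191; 0.0775 without PoWeR replicate 3). With the offsets Xirp2, whose transcript has 11979 bases, was at 0.47 (adjusted p = 0.136). Of 21 genes of the costamere and dystrophin complex, 4 were called higher, against 5.97% of all genes: Dmd (0.52), Tln2 (0.49), Lama2 (0.43) and Tln1 (0.39). None of the 4 was called in the 8-library fit, without PoWeR replicate 3 or with the offsets, and the median transcript of the list was 5662 bases.

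At the neuromuscular junction, 5 of 20 genes were higher and none lower (median 0.31), against 5.97% of all genes called higher. They were Sln, Musk, the receptor kinase of the synapse (0.88 ± 0.26, adjusted p = 0.0361), its partner gene Lrp4 (0.69 ± 0.16, adjusted p = 0.0112), Ncam1 (0.68 ± 0.17, adjusted p = 0.0144) and Chrnb1, a subunit of the acetylcholine receptor (0.58). Without PoWeR replicate 3, 2 of the 20 were called, Sln and Lrp4, and with sedentary replicate 2 left out as well none. Of 24 immediate early genes, Egr1 was lower and Fosl2 higher, against 6.89% of all genes called lower and 5.97% called higher. Egr1 stood at 15.5, 15.5, 21.3 and 40.7 CPM in sedentary and 6.19, 3.99, 3.57 and 8.06 CPM in PoWeR libraries. PoWeR and sedentary libraries did not overlap (-2.10 ± 0.46, adjusted p = 0.0125, and 0.0547 without PoWeR replicate 3).

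Growth control had 3 of 34 genes called higher, against 5.97% of all genes, and 1 with the offsets. Igfbp5, which binds insulin-like growth factors, stood at 174, 156, 236 and 226 CPM in sedentary and 336, 454, 373 and 390 CPM in PoWeR libraries. The groups did not overlap (0.97 ± 0.18, adjusted p = 0.00504). Pik3r1, the regulatory subunit of PI3 kinase (0.71), and Gdf11, a relative of myostatin (1.21), were the other 2, and neither was called without PoWeR replicate 3. Fbxo32, the muscle ubiquitin ligase atrogin-1, stood at 492, 451, 510 and 597 CPM in sedentary and 797, 945, 882 and 830 CPM in PoWeR libraries, again without overlap (0.75 ± 0.15, adjusted p = 0.00622). Of 26 protein breakdown genes, 6 were higher and 1, the autophagy gene Gabarapl1 (-0.66), lower. Of the 6, Foxo3 and Klf15 are also on the glucocorticoid list above. No gene of the growth control or protein breakdown list was called higher without PoWeR replicate 3 and sedentary replicate 2.

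Among vessel signals, Vegfb (-0.62) and Fgf1 (-0.45) were lower beside Vegfa, and the inhibitor gene Vash1 (0.69) was higher, of 15 genes, and without PoWeR replicate 3 the call of Vegfa alone remained. Of 14 endothelial markers, Emcn was called (-0.69, with an adjusted p of 0.117 without PoWeR replicate 3), and 4 had positive log2 fold changes. Of all genes, 6.89% were called lower and 5.97% higher, so 1 call on a list of this size is near those shares. No smooth muscle, fibro-adipogenic, satellite cell, Schwann cell or red blood cell gene on the lists was called. Of 8 neutrophil and 10 lymphocyte markers, 3 and 1 were abundant enough to be tested, none was called, and Cd3e and Cd4 were not among them. Of 14 macrophage markers, 12 had positive log2 fold changes and 1, the mannose receptor gene Mrc1, was called (1.20 ± 0.31, adjusted p = 0.0207, and 0.0748 without PoWeR replicate 3). Their summed level was 44.1 to 86.9 CPM in sedentary and 78.9 to 144 CPM in PoWeR libraries. Adipocyte markers summed to 261 to 363 CPM in sedentary and 179 to 249 CPM in PoWeR libraries, with Fabp4 (-0.78 ± 0.17, adjusted p = 0.0107) and Cidea (-0.82) called of 11. Of 10 tendon markers 9 had positive log2 fold changes without a call, the tendon factor gene Scx was called lower (-0.82; adjusted p = 0.0864 without PoWeR replicate 3), and the sums overlapped between groups (289 to 618 and 322 to 852 CPM). Of 26 matrix genes, Fn1 (1.16) and Lamc1 (0.56) were called higher, and neither without PoWeR replicate 3. The part of these cell type markers in the other gene lists was not tested.

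The same training comparison at 24 months, in 4 PoWeR and 5 sedentary soleus libraries, called 128 genes (0.857%). In the interaction of age and training no gene was called (0%; 1995 genes at an unadjusted p under 0.05; 72 called by DESeq2). In 6-month libraries labelled plantaris, 175 genes were called (1.16%), and in the interaction of muscle label and training again none (0%; 445 genes at an unadjusted p under 0.05; 0 by DESeq2). The libraries labelled 6-month plantaris carried Myh7 at 65.5% to 73.0% and Myh4 at 0.0292% to 0.136% of the myosin counts, as in soleus. The 24-month libraries with the source name plantaris, whose titles say soleus, carried Myh4 at 32.5% to 81.9%. The myosins of these 6-month libraries go against their plantaris label, so which muscle they hold cannot be told apart here. Their names share some digits with those of the soleus libraries, whose meaning is not given in the sources used here, so both sets may come from the same animals. The interaction was fitted without a term for that.

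**Figure D5:**
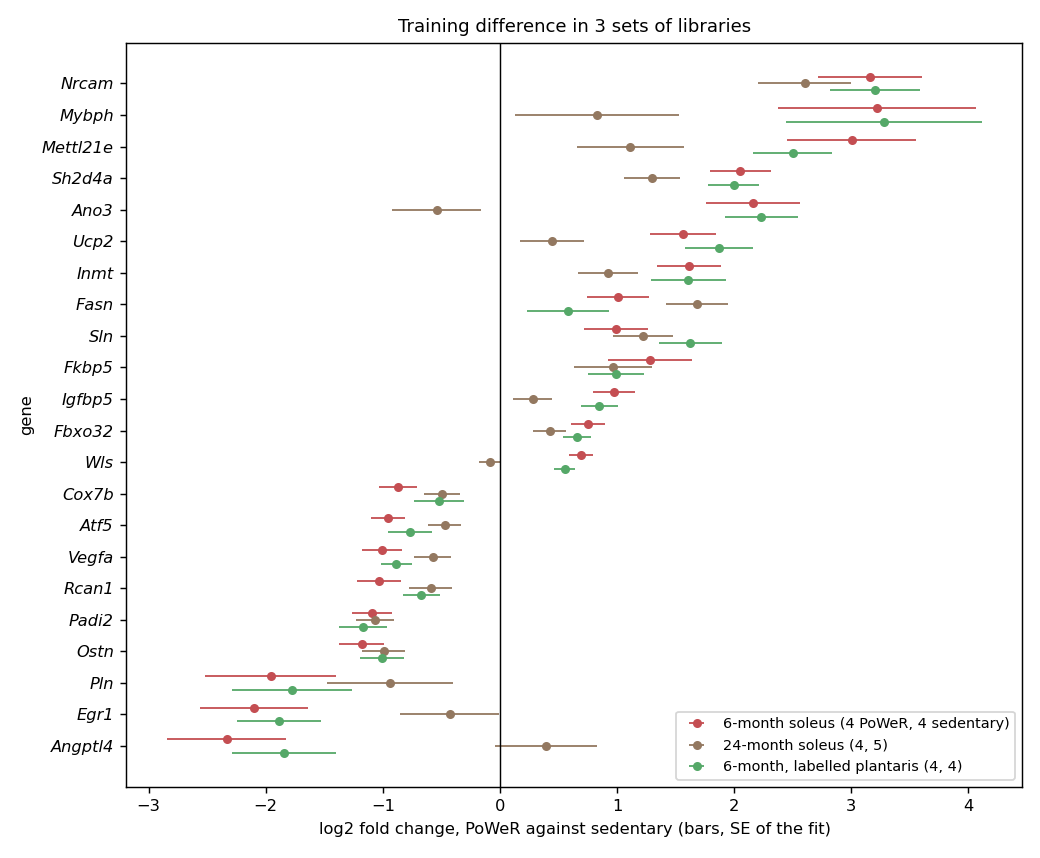
Log2 fold change of PoWeR against sedentary (points; bars, SE) for named genes in 6-month soleus (red), 24-month soleus (brown) and the 6-month libraries labelled plantaris (green). Nrcam, Sh2d4a, Sln, Ostn and Padi2 passed the threshold in all 3 comparisons. Ano3, Wls and Angptl4 have 24-month values of opposite sign, without a called interaction.

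Nrcam had log2 fold changes of 3.16 ± 0.44 at 6 months, 2.60 ± 0.40 at 24 months and 3.20 ± 0.38 in the libraries labelled plantaris. Sh2d4a had 2.05, 1.30 and 1.99, Padi2 -1.09, -1.07 and -1.17, and Ostn -1.18, -0.99 and -1.004, all called. Sln was called in all 3 comparisons too (0.99, 1.22 and 1.62). The complex I median was -0.64, -0.33 and -0.44, with 34, 0 and 0 members called, and that of the cytosolic ribosomal proteins -0.59, -0.15 and -0.32. The glucocorticoid list had medians of 0.74, 0.28 and 0.66, and the integrated stress response list -0.57, -0.03 and -0.30. The smallest p-values for age and training were those of Wls, which carries Wnt proteins to the cell surface, and Lnpk, a protein of endoplasmic reticulum junctions. Wls differed by 0.69 ± 0.10 at 6 months and -0.09 ± 0.09 at 24 months (interaction 0.78 ± 0.14, adjusted p = 0.119), and Lnpk by 0.51 ± 0.11 and -0.35 ± 0.11 (0.86 ± 0.16, adjusted p = 0.119). In the opposite direction stood the kinase gene Pim1, with -0.37 ± 0.19 and 0.996 ± 0.17 (interaction -1.37 ± 0.26, adjusted p = 0.119), and the keratin gene Krt8, with -1.31 ± 1.03 and 7.40 ± 1.24. Krt8 was at most 1.25 CPM in the 8 libraries, and its 6-month difference had the opposite sign in the 8-library fit (0.49). For Ano3 the interaction was 2.7 ± 0.55 (adjusted p = 0.119) and for Angptl4 -2.72 ± 0.67 (adjusted p = 0.19).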

How the data were processed

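The deposited table held expected counts of 23011 genes in 34 libraries, of which 23.2% to 31.5% per library were not whole, and the authors' alignment used mm10, with STAR 2.7.3a, Partek and DESeq2 named, per the submitters' processing notes, without their roles. Counting and strand settings are not given in the sources used here. Expected counts were rounded to whole numbers. Genes passed edgeR's filterByExpr (minimum count 10, total 15). The fit took the 17 soleus libraries with a mean per group, TMM factors and robust quasi-likelihood tests (edgeR 4.0.16, R 4.3.3), with Benjamini-Hochberg adjustment over all genes tested and a threshold of 0.05. Interactions with age (17 libraries) and with muscle label (16 libraries of 6 months) were fitted likewise. SE is the size of the log2 fold change over the square root of F. The fit was tested on simulated data with known changes.

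Alternatives were DESeq2 1.42.0, limma 3.58.1 with quality weights, RLE factors, no filter, scaling without mitochondrial and rRNA repeat genes, the 8 libraries alone, loess offsets for transcript length and GC (GENCODE M21 transcripts matched by symbol and chromosome, 14667 genes), the rRNA repeat share as a covariate, and leaving out each library. Offsets in the 8-library fit, and PoWeR replicate 3 with sedentary replicate 2 left out, were chosen after seeing the data. Shares of counts were compared by exact two-sided permutation. Deviations per library are log2(CPM + 0.5) minus the sedentary mean.

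Members and gene lists were chosen with earlier results of these data known, so counts on lists are descriptions beside the share of all genes called. Named genes were the 15 largest rises and falls called in both the 17- and 8-library fits with a mean of at least 5 CPM and no overlap, up to 4 called members per list, the smallest interaction p-values, and the myosin, pump and pump regulator genes with Nrcam, Sh2d4a, Padi2 and Vegfa. Abat, Sort1, Uchl1, Ech1, Chrnb1 and Gm28437 were named after their values were seen. Promoter sequences came from the RefSeq table of GRCm38.p6. A few genes that met the naming rule are not reported here.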

Additional observations from a re-analysis of the deposited data

Results flagged for a closer look

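In 12 of 292 groups of 4 values tested, the highest or lowest library lay far from the other 3 by Dixon's test. Chance alone gives about 1 in 20 such groups.

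Sedentary replicate 2 was the distant library 5 times. It was high for Cox7b (480.6 CPM, others 412.8 to 422.5), Mrpl14 (118.5, others 86.9 to 89.9), Myl3 (6017, others 4697 to 4871) and Tnnc2 (4858, others 3871 to 3892). It was low for Abcc9 (103.5 CPM, others 151.5 to 159.3). This library had the highest level of short transcripts of the 8.

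Sedentary replicate 1 was low for Rps6 (28.24 CPM, others 38.7 to 39.99) and high for Xirp2 (6206 CPM, others 3823 to 4155). Sedentary replicate 3 was high for Acly (30.53 CPM, others 19.07 to 19.5). Sedentary replicate 4 was low for Fkbp5 (25.34 CPM, others 41.49 to 44.63) and for the share of the rRNA repeat gene CT010467.1 (1.27%, others 1.93% to 2.04%). PoWeR replicate 2 was low for 2310009B15Rik (2.042 CPM, others 2.584 to 2.596). PoWeR replicate 3 was high for Dmd (284.7 CPM, others 192.1 to 199.4).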

How the results depend on the processing

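Of the 129 called genes named, none changed sign in the 18 alternatives, and 18 kept their call in all of them. Calls kept ranged from 24 without PoWeR replicate 3 and sedentary replicate 2 to 129 with RLE factors; 70 were kept in the 8-library fit and 80 with the offsets. The count of called genes (1920) became 358 with 8 libraries (190 higher, 168 lower), 913 with the offsets (356, 557), 1064 with the rRNA repeat share as covariate (454, 610), 385 with offsets in 8 libraries (186, 199), and 124 without PoWeR replicate 3 and sedentary replicate 2 (49, 75). Leaving out single libraries gave 602 (sedentary replicate 2 out; 623 for PoWeR replicate 3, 696 for PoWeR replicate 2) to 2545 (PoWeR replicate 1 out), with 254 to 1091 higher and 348 to 1492 lower. The age interaction gave 72 calls with DESeq2 and 0 to 58 when single libraries were left out (58 without PoWeR replicate 4). The cause of these shifts was not tested.

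Values that changed sign were those of genes and shares not called. With single libraries left out, the haemoglobin share difference ranged from -0.00971 to 0.00916 percentage points and the Myh1 share difference from -1.09 to 1.30. On the log2 scale the ranges were -0.022 to 0.302 for Myh2, -0.127 to 0.704 for Myh1, -0.221 to 0.081 for Myh4, -0.236 to 0.012 for Atp2a1 and -0.088 to 0.387 for Strit1. With the offsets, Myh2 was -0.044, Atp2a2 -0.048 and Mrln 0.003, and with offsets in 8 libraries -0.047, -0.054 and 0.014. Myh4 was 0.014 with limma and 0.097 without PoWeR replicate 3 and sedentary replicate 2.

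No paired analysis was possible because the 6-month soleus libraries share no replicate numbers in the labels, and the digits in library names that soleus and labelled plantaris share have no stated meaning. With 4 libraries per group and 16840043 to 22072256 counts each, transcripts at a few CPM rest on few reads.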

Other observations

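Several genes that no list above holds were called in the 17-library fit and in all 18 alternatives; they were chosen after their values were seen. Abat, the enzyme that breaks down the transmitter GABA, rose from a mean of 19.0 to 54.3 CPM (log2 fold change 1.51 ± 0.20, adjusted p = 0.00149). Sort1, a sorting receptor between the Golgi and the cell surface, rose from 19.1 to 42.9 CPM (1.17 ± 0.18, adjusted p = 0.00196), and Uchl1, a ubiquitin hydrolase abundant in neurons, from 15.1 to 35.1 CPM (1.22 ± 0.21, adjusted p = 0.00501). Ech1, an isomerase of mitochondrial and peroxisomal fatty acid oxidation, fell from 352.8 to 177.7 CPM (-0.99 ± 0.15, adjusted p = 0.00151).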
